A study of Mus musculus with 96 samples.

Results

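The 7 genes described here encode auxiliary subunits of voltage-gated calcium (Cav) channels, namely the alpha2delta subunits (Cacna2d1, Cacna2d2, Cacna2d3) and the beta subunits (Cacnb1, Cacnb2, Cacnb3, Cacnb4). They were chosen by name, as the rows of a single-neuron expression table whose Ensembl identifier carries 1 of these symbols in Gencode vM21, and they are 7 of 38887 genes. All 7 were detected in at least 5% of the neurons, as were 10319 genes in all.

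The values come from patch-seq of the lateral superior olive (LSO), an auditory brainstem nucleus that compares sound level between the ears. After electrophysiological recording, the cytoplasm of a neuron was drawn into the patch pipette, and each neuron gave 1 library. The labels sort the neurons by their firing pattern into Onset and Sustained neurons, together called principal LSO neurons (pLSOs), and into lateral olivocochlear neurons (LOCs), which project to the cochlea. Negative controls (NCs) are libraries from pipettes that had touched a slice without harvesting a neuron. All mice were C57BL/6J of both sexes in the second postnatal week, around hearing onset, and the sources name no transgene or treatment in any group. After 8 of the 96 libraries had been left out, 41 Onset and 11 Sustained neurons (52 pLSOs), 28 LOCs and 8 NCs remained. Which neurons shared an animal is not in the labels. Every group was therefore treated as 1 sample, no test between groups was made, and ratios and shares describe these neurons only. The class markers followed the labels, since the 4 pLSO markers (Spp1, Lpgat1, Maf, Kcnh7) were all higher in pLSOs, and the 4 LOC markers (Calca, Ucn, Isl1, Col4a3) were all higher in LOCs. The study ranked all of these genes among its top differences between the classes in these same neurons. Their direction is therefore no independent check of the labels. Neurons had 1175 to 6276 genes at 1 TPM or more (TPM, transcripts per 1e6, scale each library to the same total) and NCs had 285 to 1271.

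A Cav channel is built around a pore-forming alpha1 subunit that senses voltage and passes calcium. Beta subunits are cytoplasmic, bind the loop between the first and second repeat of the pore subunit, bring it to the membrane and shape its gating. Alpha2delta subunits are extracellular proteins anchored to the membrane that raise the number of channels at the surface and at presynaptic release sites, and gabapentinoid drugs bind to the products of Cacna2d1 and Cacna2d2. In the auditory brainstem, Cav channels drive transmitter release and contribute to excitability.

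Members of a family resemble each other in their coding sequence, so it matters whether a read can tell them apart. The stretch of 45 coding bases with the most bases shared by the 4 beta genes is shown here for each of them, from Gencode vM21 on GRCm38, with the 35 bases identical in all 4 in capitals. It lies in the guanylate kinase-like part of the protein, which holds the pocket for the pore subunit, and in each gene it spans an exon junction, so the positions include an intron.
Cacnb1 (chr11:98009899-98010322, minus strand): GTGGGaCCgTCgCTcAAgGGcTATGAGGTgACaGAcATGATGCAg
Cacnb2 (chr2:14971616-14972079, plus strand): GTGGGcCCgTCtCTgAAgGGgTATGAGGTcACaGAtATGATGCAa
Cacnb3 (chr15:98641231-98641417, plus strand): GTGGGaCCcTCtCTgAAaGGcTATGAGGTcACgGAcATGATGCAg
Cacnb4 (chr2:52464651-52465624, minus strand): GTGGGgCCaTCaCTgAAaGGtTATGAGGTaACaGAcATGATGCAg

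The same search over the alpha2delta genes found a stretch with 31 of 45 bases identical in all 3, again in capitals. It encodes the metal-binding motif of the von Willebrand factor A domain, through which alpha2delta subunits act on the channel. In Cacna2d3 the stretch lies within 1 exon, and in the other two it spans an exon junction.
Cacna2d1 (chr5:16266706-16267388, plus strand): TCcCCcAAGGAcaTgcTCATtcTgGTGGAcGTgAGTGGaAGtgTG
Cacna2d2 (chr9:107513073-107513245, plus strand): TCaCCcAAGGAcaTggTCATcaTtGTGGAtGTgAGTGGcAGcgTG
Cacna2d3 (chr14:29346968-29347012, minus strand): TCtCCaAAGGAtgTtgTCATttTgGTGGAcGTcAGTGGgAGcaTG

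Even in these stretches, differing bases lie only a few letters apart. Over the annotated protein-coding transcripts, the longest run of identical bases on the same strand had 12 to 48 bases among the 21 pairs of members, and reads were 88 bases long. Within the beta family, the longest run was 24 bases, between Cacnb1 and Cacnb2, and within the alpha2delta family it was 20 bases, between Cacna2d2 and Cacna2d3. The exons of Cacna2d2, Cacnb1, Cacnb2 and Cacnb4 overlap annotated genes on the other strand. These are Gm17141 for Cacna2d2, Gm11629 for Cacnb1, Gm10849, Gm10848 and Gm13269 for Cacnb2, and A430018G15Rik for Cacnb4. Whether the counting used strand is not given in the sources used here, so reads of these partners cannot be told apart from those of the members.

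Levels of different members cannot be read off the deposited TPM. The low values of the table fall on whole multiples of a smallest step, and this step was used to find what 1 read is worth. In each of the 80 neurons, 1 read was worth 8.78 to 231 TPM in the first rows of the table (median 41.2 in pLSOs and 61.8 in LOCs), and this worth fell from row to row in the way of a division by lengths sorted from short to long rather than by each gene's own length. In 15 of 17 windows of 20 rows checked up to row 4896, the divisor found from the values was within 1 of the sorted exonic length less 80 bases. Cacnb3 in row 571 was divided by 4, Cacna2d2 in row 1298 by 7, Cacnb4 in row 1806 by 13, Cacnb1 in row 2800 by 27 and Cacna2d3 in row 3424 by 29. For Cacna2d1 in row 11813 the divisor is 594 and for Cacnb2 in row 16640 it is 1188, both by extension of the sorted lengths beyond the rows that could be checked.

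For these reasons 1 read of Cacnb3 gave a median of 12.95 TPM over the neurons, while 1 read of Cacna2d1 gave 0.0872 TPM and 1 read of Cacnb2 gave 0.0436 TPM. Since the table holds whole numbers, Cacna2d1 needed 1.29 to 33.8 reads to be listed above 0 and Cacnb2 needed 2.57 to 67.7 reads, which is why a value of 0 for these 2 genes does not mean that no read was found. A read of Cacnb3, Cacna2d2 or Cacnb4 showed in every neuron, and for Cacnb1 and Cacna2d3 in all but 3. Below, TPM and detection at 1 TPM are compared between groups for 1 gene at a time. For 2 genes the floor also differed between the classes, which limits their shares. Cacna2d1 needed a median of 7.22 reads in pLSOs and 4.81 in LOCs to be listed, and Cacnb2 needed 14.4 and 9.62. Members are compared with each other by estimated reads, or by TPM recomputed from these reads with each gene's own exonic length (own-length TPM).

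**Figure D1:**
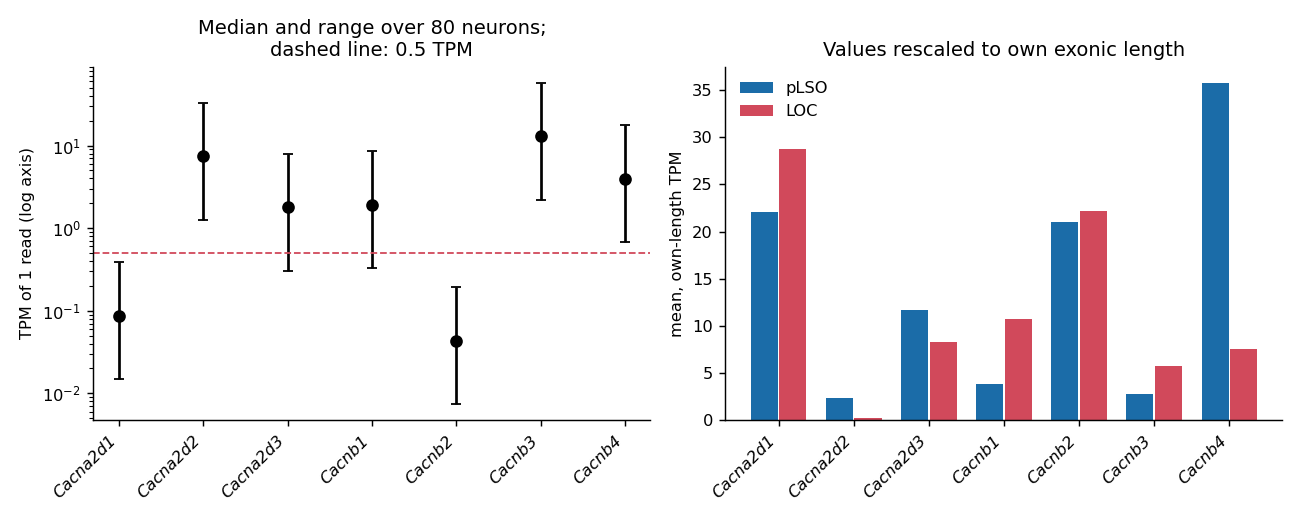
Left, the TPM that 1 read of each member was worth (log axis, point for the median and line for the range over 80 neurons, dashed line at 0.5 TPM, below which a value rounds to 0). Right, the mean own-length TPM in pLSOs and LOCs, which is highest for Cacnb4 in pLSOs. The LOC mean of Cacna2d1 (28.7) is above that of Cacnb2 (22.2) but falls to 15.1 without its highest neuron. Values of both genes rest on divisors extended beyond the rows that could be checked.

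By own-length TPM over the 80 neurons, Cacnb4 had a mean of 25.8, Cacna2d1 of 24.4 and Cacnb2 of 21.4, followed by Cacna2d3 with 10.5, Cacnb1 with 6.23, Cacnb3 with 3.80 and Cacna2d2 with 1.58. Each mean is over neurons of which most were listed at 0, and reads of Cacna2d1 and Cacnb2 that rounding removed are not in it. The places of Cacna2d1 and Cacnb2 here and in the read counts below rest on their extended divisors, which could not be checked. At 70 or more estimated reads, a number above the rounding floor of every member in every neuron, Cacnb4 was found in 20 neurons, Cacna2d1 in 17, Cacnb2 in 15, Cacna2d3 in 6, Cacnb1 in 3, Cacnb3 in 2 and Cacna2d2 in 1. The deposited TPM give another order, with Cacnb3 (45.025 TPM on average) above Cacna2d1 (6.25 TPM) and Cacnb2 (3.25 TPM), although Cacnb3 had 3.38 estimated reads per neuron, Cacna2d1 93.4 and Cacnb2 78.4.

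Of the 7 members, 2 (Cacna2d2 and Cacnb4) had a mean TPM at least 2-fold higher in pLSOs and 1 (Cacnb1) at least 2-fold higher in LOCs. Over the 10319 genes that passed the 5% filter, 30.9% were at least 2-fold higher in pLSOs and 21.9% in LOCs, 52.8% in all, so 3 of 7 is no more than the share of all genes. A difference of 20 percentage points or more in the share of neurons was found for 1 member, Cacnb4, and for 8.7% of all genes (5.46% with the higher share in pLSOs). The median difference in share, pLSO minus LOC, was 16.2 points over the alpha2delta genes and -6.73 points over the beta genes, beside 2.20 points over all genes tested.

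**Figure D2:**
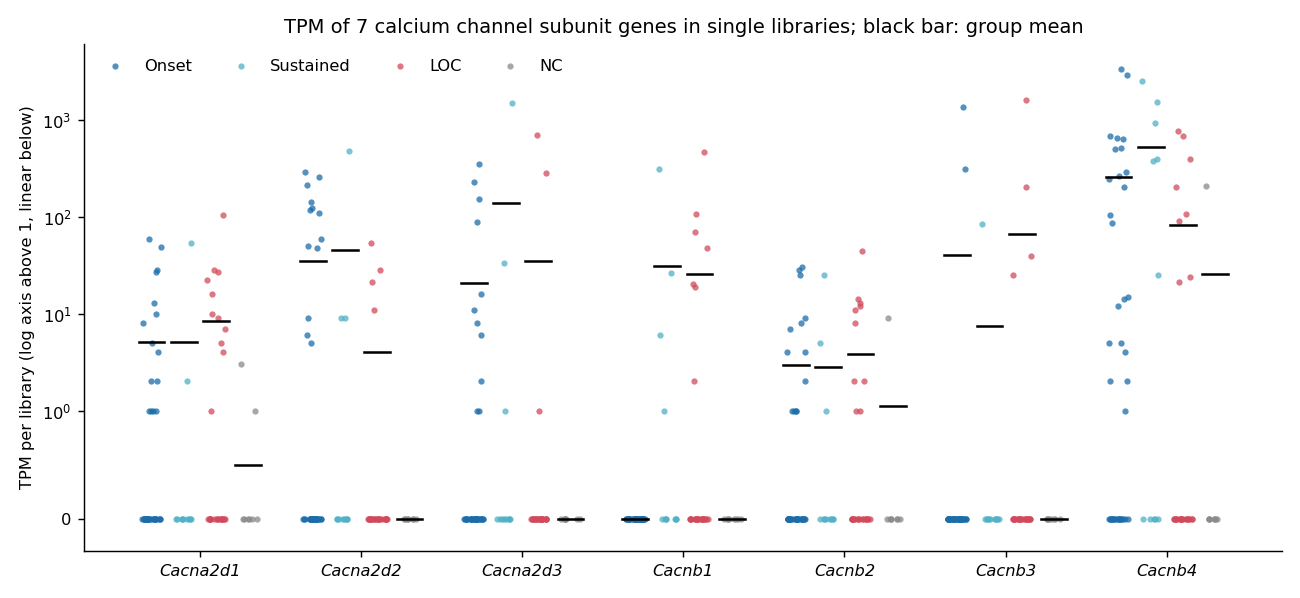
TPM of each member in every kept library (vertical axis logarithmic above 1 and linear below), by group, with a black bar for the group mean. Most libraries lie at 0, positive values run from 1 to 3317 TPM, and Cacnb1 is at 0 in every Onset neuron.

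Cacna2d1 encodes the alpha2delta-1 protein, the classical subunit of muscle and brain channels. It lies at chr5:15934691-16374511 on the plus strand. In pLSOs its TPM ran from 0 over a median of 0 to 59, and it was detected in 17 of 52 (32.7%, 95% interval 20.3 to 47.1%). In LOCs it ran from 0 over a median of 0 to 104 and was detected in 11 of 28 (39.3%, 21.5 to 59.4%). Among the NCs 2 of 8 held it, at 3 and 1 TPM. The 2 classes overlapped throughout, and the mean of 8.32 TPM in LOCs (SD 20.6) against 5.13 TPM in pLSOs (SD 13.5) was a 1.62-fold difference that fell to 1.17-fold without the highest neuron of each class. Behind the highest value of each group stood an estimated 1127 reads in an Onset neuron (59 TPM), 795 in a Sustained neuron (54 TPM) and 896 in a LOC (104 TPM). Cacna2d1 took 74.0% of the estimated alpha2delta reads of pLSOs and 71.3% of those of LOCs, by a divisor extended beyond the rows that could be checked.

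Cacna2d2 encodes alpha2delta-2, which is lost in the ducky mouse and is abundant in cerebellar Purkinje cells. It lies at chr9:107399612-107529343 on the plus strand. It was detected in 16 of 52 pLSOs (30.8%, 18.7 to 45.1%) with a highest value of 477 TPM, and in 4 of 28 LOCs (14.3%, 4.03 to 32.7%), at 54, 28, 21 and 11 TPM. None of the 8 NCs held it, which allows a share of up to 37.5%. Of the 16 pLSOs with the transcript, 9 lay above the highest LOC, while the other values and the zeros overlapped. The means were 36.9 TPM in pLSOs (SD 90.7) and 4.07 TPM in LOCs (SD 11.9), a ratio of 9.06. Over the alternatives the ratio ran from 4.19 with a pseudocount of 1 on the log2 scale to 17.6 with all libraries as labelled, always higher in pLSOs. These values rest on few reads: 1 to 94 in a positive pLSO and 1 to 6 in a positive LOC. In pLSOs with Cacna2d2 the median depth was 1121140 estimated reads in all genes, and in pLSOs without it 811436. For LOCs these medians were 724695 and 722096, and the part of depth in the ratio was not tested. By own-length TPM Cacna2d2 was the lowest member, with 2.31 in pLSOs and 0.221 in LOCs.

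Cacna2d3 encodes alpha2delta-3, a subunit with known roles in auditory synapses and pain processing. It lies at chr14:28904943-29721864 on the minus strand. It was detected in 14 of 52 pLSOs (26.9%, 15.6 to 41.02%) with up to 1483 TPM and in 3 of 28 LOCs (10.7%, 2.27 to 28.2%), at 686, 279 and 1 TPM. No NC held it. The difference in share was 16.2 points, and the means of 45.7 and 34.5 TPM differed 1.32-fold. One neuron in each class carried much of the mean: without the highest neuron, pLSOs averaged 17.5 TPM and LOCs 10.4 TPM.

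Among the beta genes, Cacnb4 set the pLSOs apart most clearly. Its product, the beta4 subunit, is the beta subunit of many brain P/Q-type channels and is lost in the lethargic mouse. The gene lies at chr2:52428320-52676831 on the minus strand. Its TPM ran from 0 over a median of 2 to 3317 in Onset neurons, from 0 over a median of 25 to 2480 in Sustained neurons and from 0 over a median of 0 to 760 in LOCs. It was detected in 28 of 52 pLSOs (53.8%, 39.5 to 67.8%) and in 8 of 28 LOCs (28.6%, 13.2 to 48.7%), a difference of 25.3 points whose intervals overlap. One of the 8 NCs held 206 TPM. The means were 310 TPM in pLSOs (SD 713) and 81.1 TPM in LOCs (SD 199), a ratio of 3.82, or 4.75 by own-length TPM, and 5 pLSOs lay above every LOC. Astrocyte transcripts (Aqp4, Gfap, Aldh1l1, Slc1a3, Gja1) were present in 18 of the 28 pLSOs with Cacnb4 and 9 of the 24 without it, and in 5 of 8 and 9 of 20 LOCs. Their summed TPM ran from 0 to 1380 in pLSOs, 0 to 2456 in LOCs and 0 to 1521 in NCs. Aldh1l1 and Gja1 were at 0 in every LOC, and the part of these transcripts was not tested. Depth also moved with this gene: pLSOs with Cacnb4 had a median of 1050680 estimated reads in all genes and pLSOs without it 752220, and for LOCs these medians were 1284540 and 669278. Libraries of pLSOs were also deeper than those of LOCs, with medians of 887908 and 724695 reads, and the part of depth in the difference was not tested beyond the threshold of 70 reads, at which 16 of 52 pLSOs and 4 of 28 LOCs held Cacnb4, 16.5 points apart.

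**Figure D3:**
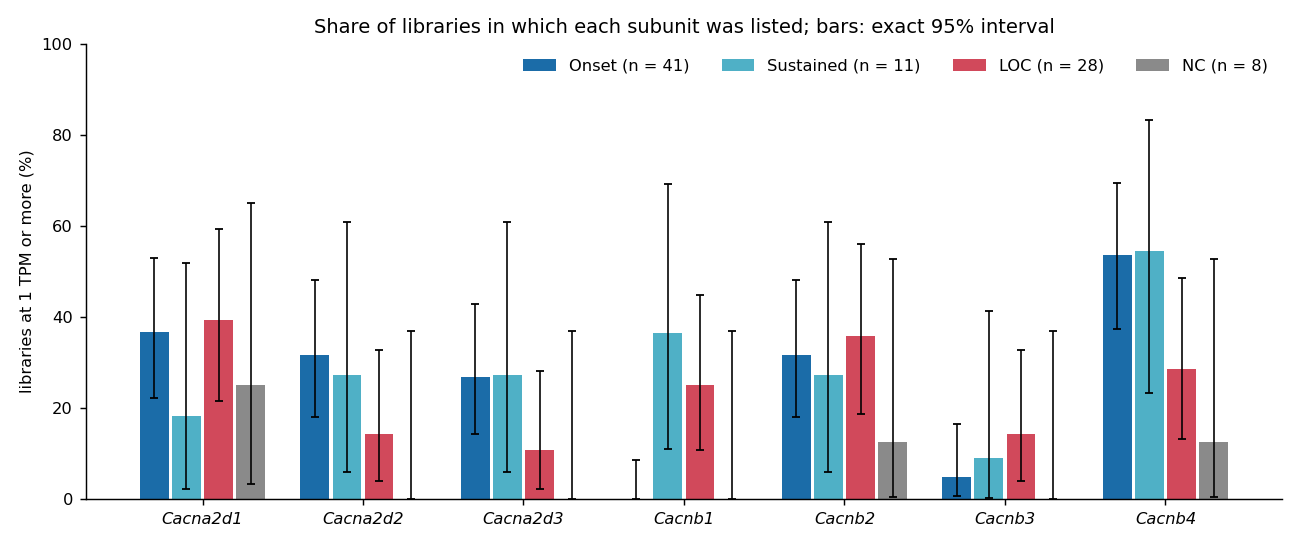
Share of libraries at 1 TPM or more for each member by group, with exact 95% intervals that cover counting error only. Cacnb4 reaches 53.7% of Onset neurons, 54.5% of Sustained neurons and 28.6% of LOCs, and shares should be compared within 1 gene because the reads needed to reach 1 TPM differ between genes. For Cacna2d1 and Cacnb2 the reads needed were also more in pLSOs than in LOCs.

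Cacnb2 encodes beta2, the main cardiac beta subunit, which is also found in brain. It lies at chr2:14603088-14987908 on the plus strand. It was detected in 16 of 52 pLSOs (30.8%, 18.7 to 45.1%), with 30 TPM at most, and in 10 of 28 LOCs (35.7%, 18.6 to 55.9%), with 44 TPM at most. One NC listed 9 TPM. The means of 2.92 and 3.86 TPM were 1.32-fold apart, and without the highest neuron of each class they were 2.39 and 2.37. By its divisor, which was extended beyond the rows that could be checked, the low TPM stand for many reads. On that estimate 15 neurons held 70 or more and the highest held 967. In own-length TPM, Cacnb2 had 21.0 in pLSOs and 22.2 in LOCs, and of all members it differed least between the classes.

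Cacnb1, on chr11:98001508-98023034 and the minus strand, encodes the beta subunit of the skeletal muscle channel, which is also made in brain. It was listed at 0 in all 41 Onset neurons, which allows a share of up to 7.32%. Of the 11 Sustained neurons, 4 held it, at 309, 26, 6 and 1 TPM (36.4%, 10.9 to 69.2%). Of the 28 LOCs, 7 held it, at 460, 107, 69, 47, 20, 19 and 2 TPM (25.0%, 10.7 to 44.9%), and no NC did. Its mean in LOCs, 25.9 TPM (SD 88.6), was set against 6.58 TPM (SD 42.9) in pLSOs, 3.93-fold higher in LOCs, and 9.78 against 0.647 TPM without the highest neuron of each class. The pLSO mean includes the zeros of the 41 Onset neurons. Sustained neurons alone averaged 31.1 TPM, above the LOC mean, and 3.3 TPM without their highest neuron. The call is thus one of LOCs over Onset neurons, not over Sustained neurons. Over the alternatives the ratio of pLSO over LOC ran from 0.0662 to 0.356. Of all genes tested, 1.7% were at 0 in every Onset neuron, and 0.339% (35 genes) were at 0 there and detected in at least 20% of LOCs. This pattern was modelled on Cacnb1 itself, so its rarity is no support for an absence from Onset neurons. The genes tested also include 4800 found in 20% or more of neurons, whereas Cacnb1 was found in 13.75%. Genes as sparse as Cacnb1 were not compared on their own. In 3 neurons of low TPM per read, all labelled Onset, 1 read of Cacnb1 would have been rounded to 0. Microglial transcripts (Cx3cr1, C1qa, C1qb, Csf1r, Tmem119) moved with Cacnb1 among the LOCs: all 7 LOCs with Cacnb1 had at least 1 of them, compared with 8 of the 21 LOCs without it, and the former had a median of 3111 detected genes and the latter 2124. Of the 4 Sustained neurons with Cacnb1, 2 had such a transcript, and of the 7 without it, 5 had. Endothelial transcripts (Cldn5, Pecam1, Flt1) were present in 3 of the 4 Sustained neurons with Cacnb1 and 1 of the 7 without it, summing to at most 3 TPM, and astrocyte transcripts in 5 of the 7 LOCs with it and 9 of the 21 without it. Summed over the 5 genes, the microglial TPM ran from 0 to 1745 in Onset neurons, 0 to 1190 in Sustained neurons and 0 to 452 in LOCs, and their part in the result was not tested.

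Cacnb3 encodes beta3, a subunit often paired with N-type channels in neurons. It lies at chr15:98630840-98644529 on the plus strand and was the beta gene found in the fewest neurons. It was detected in 2 Onset neurons (1356 and 308 TPM), 1 Sustained neuron (83 TPM) and 4 LOCs (1587, 204, 39 and 25 TPM), that is in 5.77% of pLSOs (1.21 to 15.9%) and 14.3% of LOCs (4.03 to 32.7%). No NC held it. Because 1 read was worth 2.19 to 57.7 TPM, these values correspond to 1 to 154 reads. LOCs had a mean of 66.2 TPM and pLSOs of 33.6 TPM, a 1.97-fold difference that shrank to 1.29-fold without the highest neuron of each class.

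Onset and Sustained neurons were compared next, to ask whether the auxiliary subunits differ with the firing pattern within pLSOs. With 11 Sustained neurons, single neurons decided most ratios. Of the members, 1 (Cacnb3) was at least 2-fold higher in Onset neurons and 3 (Cacna2d3, Cacnb1, Cacnb4) at least 2-fold higher in Sustained neurons. Of all genes tested, 35.2% were at least 2-fold higher in Onset neurons and 23.7% in Sustained neurons. The Cacna2d3 means of 20.9 and 138 TPM, 6.59-fold higher in Sustained neurons, rested on 1 Sustained neuron with 1483 TPM. Without the highest neuron of each group the ratio turned to 3.75-fold higher in Onset neurons. For Cacnb3 the 40.6 TPM of Onset neurons came mostly from 1 neuron with 1356 TPM. The Cacnb4 mean was 518 TPM in Sustained and 254 TPM in Onset neurons, 2.04-fold apart, and 1.82-fold apart without the highest neuron of each, while the shares of 54.5% and 53.7% differed by -0.887 points (Onset minus Sustained). Cacna2d1, Cacna2d2 and Cacnb2 were within 2-fold, with ratios of 1.01, 0.772 and 1.05 of Onset over Sustained, but became 19.0-fold, 15.8-fold and 3.79-fold higher in Onset neurons without the highest neuron of each group. In share of neurons, only Cacnb1 passed 20 points among the 7 members (36.4 points in favour of Sustained neurons), as did 14.0% of all genes in either direction and 10.7% with the higher share in Sustained neurons (3.22% in Onset neurons).

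Composition within each family was then compared by summed estimated reads. The reads of Cacnb2 and Cacna2d1 rest on divisors (1188 and 594) extended beyond the rows that could be checked. The shares and leads below hold only as far as that extension does. In the beta family, Cacnb2 took 50.1% and Cacnb4 47.2% of the reads of Onset neurons, 34.4% and 55.8% in Sustained neurons, and 56.4% and 29.1% in LOCs. Cacnb1 made up 9.52% in Sustained neurons and 11.8% in LOCs, and Cacnb3 stayed below 3% in each group. Single libraries carried several of these shares. Without the neuron that held 967 of the 1222 Sustained Cacnb2 reads, Cacnb2 took 11.6% and Cacnb4 72.5%. Without the neuron highest in Cacnb1, the Cacnb1 share was 0.964% in Sustained neurons and 6.66% in LOCs. Taken neuron by neuron, Cacnb4 had the most beta reads in 21 of the 37 pLSOs with any beta gene and in 4 of 21 LOCs, and Cacnb2 in 12 pLSOs and 9 LOCs. In the alpha2delta family, Cacna2d1 led in 16 of 36 pLSOs and 11 of 15 LOCs, and Cacna2d2 in 12 pLSOs and 2 LOCs. Rounding favours Cacnb4 and Cacna2d2 in these counts, since 1 read of either showed in every neuron. To be listed, Cacnb2 needed a median of 14.4 reads in pLSOs and 9.62 in LOCs, and Cacna2d1 needed 7.22 and 4.81. How far this moved the leads was not tested. The Sustained share of Cacna2d3, 49.0% of alpha2delta reads, came from the neuron with 1483 TPM, which held 820 of 845 reads, and without it the share was 2.73%. In LOCs, Cacna2d3 took 28.3%, and 3.22% without its highest neuron.

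**Figure D4:**
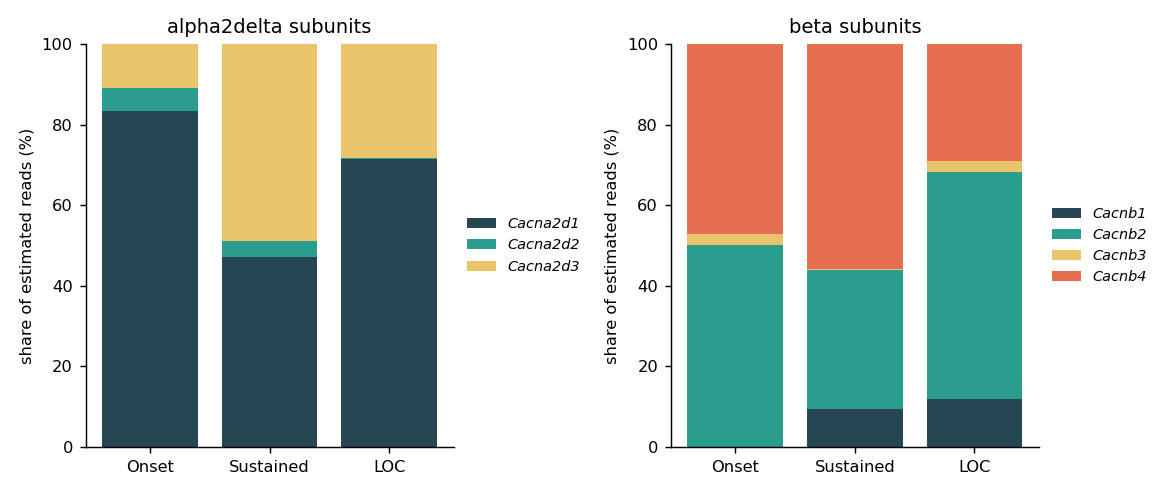
Share of summed estimated reads (vertical axis, %) taken by each alpha2delta gene (left) and each beta gene (right) in Onset neurons, Sustained neurons and LOCs. Cacna2d1 has 83.3% of the alpha2delta reads of Onset neurons, and Cacnb4 has 47.2%, 55.8% and 29.1% of the beta reads in the 3 groups. All shares depend on the divisors of Cacna2d1 and Cacnb2, which were extended beyond the rows that could be checked.

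A neuron had a mean of 1.88 members at 1 TPM or more in pLSOs (SD 1.22, range 0 to 4) and of 1.68 in LOCs (SD 0.983, range 0 to 4), and an NC had 0.5. None of the 7 was listed in 11 of the 80 neurons. A beta gene was found in 37 of 52 pLSOs (71.2%) and 21 of 28 LOCs (75.0%), and an alpha2delta gene in 36 pLSOs (69.2%) and 15 LOCs (53.6%). No neuron held all 3 alpha2delta genes, and 1 Sustained neuron, which had 6276 detected genes, held all 4 beta genes. In Onset neurons the most frequent beta sets were Cacnb4 alone in 13 neurons, no beta gene in 13 and Cacnb2 with Cacnb4 in 8. The most frequent sets in LOCs were no beta gene in 7 neurons, Cacnb2 alone in 5, Cacnb3 alone in 4, and Cacnb1 alone and Cacnb4 alone in 3 each. Of the 11 Sustained neurons, 3 had Cacnb4 alone, 2 had Cacnb1 alone and 2 had no beta gene. Each other set of the Sustained neurons was found in 1. All 4 LOCs with Cacnb3 lacked every other beta gene in the table.

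**Figure D5:**
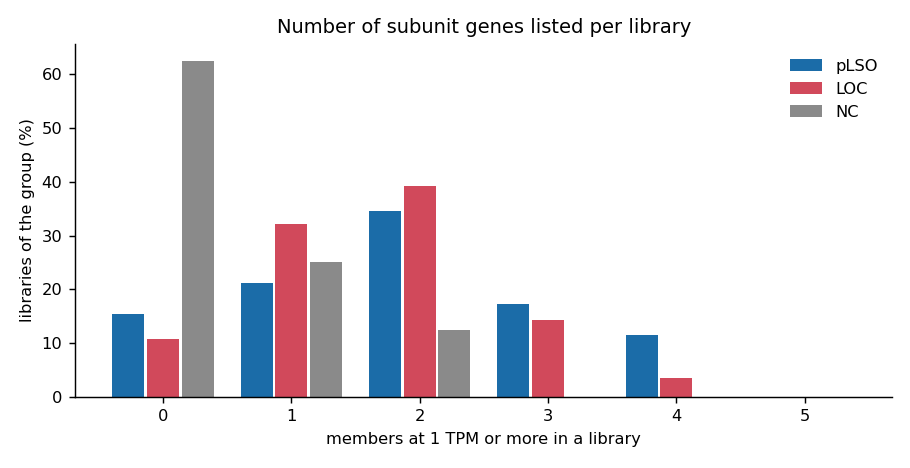
Percentage of libraries of each group (vertical axis) by the number of members at 1 TPM or more (horizontal axis). Neurons have 0 to 4 members, and 5 of the 8 NCs have none.

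Because auxiliary subunits act on a pore subunit, their joint detection was counted. At least 1 pore subunit gene was found in 72 of the 80 neurons, and 35 of them also held a beta and an alpha2delta gene, 25 pLSOs and 10 LOCs. In 20 neurons a pore subunit was listed with no beta gene. Cacnb4 and Cacna1a, which encodes the P/Q-type pore, were found together in 20 neurons, of 36 with Cacnb4 and 35 with Cacna1a. Cacnb4 shared 14 neurons with Cacna1e, the R-type pore, and 13 with Cacna1b, the N-type pore, which were found in 34 and 28 neurons. Cacnb1, found in 11 neurons, shared 6 with Cacna1e and 2 with Cacna1a. Of the 6, 5 were LOCs, where Cacna1e was in 21 of 28. These counts were not compared with those that the totals alone would give, and no preference for a pore is read from them.

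Among the other genes of the channel complex, 6 of 10 pore genes were detected in at least 5% of neurons, of which 2 were at least 2-fold higher in pLSOs and 1 in LOCs. Over all genes tested, 30.9% were at least 2-fold higher in pLSOs and 21.9% in LOCs. This and the following list counts stand beside those shares and, with so few genes, are not read as a result about a list. Cacna1a was found in 28 of 52 pLSOs and 7 of 28 LOCs (6.44 and 2.32 TPM on average). Cacna1e was found in 13 pLSOs and 21 LOCs (196 and 1511 TPM). Cacna1b, Cacna1d, the L-type pore of hair cells and neurons, and Cacna1g, a T-type pore, were within 2-fold, with pLSO over LOC ratios of 0.859, 1.64 and 0.503. Single neurons decided these, since without the highest neuron of each class the ratios were 1.58, 3.78 and 1.00. Without it Cacna1a was 6.61-fold higher in pLSOs and Cacna1e 18.0-fold higher in LOCs. The alpha2delta relative Cachd1 was found in 9 pLSOs and no LOC, which allows a share of up to 10.7% there, and Cacna2d4, best known from the retina, was listed at 0 in every kept library. Of the 8 gamma genes, 4 were tested and 2 were higher in pLSOs: Cacng5 in 34 pLSOs and 2 LOCs (12.8-fold) and Cacng4 in 17 and 7 (7.85-fold). Without the highest neuron of each class these became 33.6-fold and 11.9-fold. Cacng2, or stargazin, was in 17 pLSOs and 14 LOCs at a ratio of 1.46, which turned to 0.857 without those neurons. These gamma proteins serve mainly as partners of AMPA receptors.

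RGK proteins are small GTPases that bind beta subunits and reduce calcium current. Of 4 genes, 3 were tested and 2 were higher in LOCs, beside 21.9% of all genes tested. Gem was 1 of the 2, found in 11 pLSOs and 9 LOCs with a mean 3.91-fold higher in LOCs. Rem2 was in 14 pLSOs and 8 LOCs at a ratio of 1.09. Of the Stac adaptors, which bind L-type channels, only Stac2 was tested, and it was found in 25 pLSOs and 8 LOCs, 3.46-fold higher in pLSOs (19.2-fold without the highest neuron of each class), but also in 2 of 8 NCs. Extracellular partners of alpha2delta subunits gave 1 of 5 tested genes higher in each class, beside 30.9% of all genes in pLSOs and 21.9% in LOCs. Nrxn3, a presynaptic adhesion protein, was found in 33 pLSOs and 26 LOCs, 2.97-fold higher in LOCs, whereas Nrxn2 and Lrp1 were within 2-fold, with ratios of 0.669 and 0.792. Of the 5 active zone genes, Rims2, which binds beta subunits, was 8.16-fold higher in pLSOs (22 pLSOs and 6 LOCs). Rims1, a relative that also binds beta subunits, was found in 29 pLSOs and 7 LOCs, 30.8 points apart, while its ratio was 0.943 and became 3.32 without the highest neuron of each class. Bsn and Erc2 had ratios of 0.988 and 1.95, of which the latter rose past 2-fold, to 2.14, without those neurons.

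For each member, the genes with the most similar pattern over the 80 neurons were sought by Spearman's rho of log2(TPM + 1) over the 4800 genes found in 20% or more of them. The highest rho was 0.47 for Cacna2d1 (Atg2b, followed by Iqcb1 and Slc5a3), 0.38 for Cacna2d2 (Zmat4, Cbr1, Cdc42bpb) and 0.44 for Cacna2d3 (Tmem63b, Frmd5, Homer1). For the beta genes it was 0.51 for Cacnb1 (Pms2, Ahsa2, Lbr), 0.45 for Cacnb2 (Ndufb9, Mtx2, Derl1), 0.49 for Cacnb3 (Cops8, Slc5a7, Ifngr2) and 0.46 for Cacnb4 (Cacul1, Cmc2, Meis2). These are the highest of many weak values in sparse data, they share libraries and depth, and none of the 21 genes belongs to a channel complex list used here.

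Electrophysiological features of the same neurons gave only weak relations. Over 80 pairs of member and feature in Onset neurons rho ran from -0.33 to 0.43, and over 60 pairs in LOCs from -0.44 to 0.46. The highest values were those of Cacnb2 with the action potential threshold in Onset neurons (n = 41) and of Cacna2d1 with the decay time of spontaneous excitatory currents in LOCs (n = 28). Most neurons enter at 0 TPM, so these values are given as a description only.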

How the data were processed

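The series holds 96 libraries, of 86 neurons and 10 negative controls. The authors trimmed the reads with Trim Galore (0.4.2), aligned them to mm10 with STAR, marked duplicates with Picard (1.115) and counted them per gene with featureCounts. The score values analysed here are TPM rounded to whole numbers, as deposited by the authors, who normalised for gene length and depth. No read counts were used from a file. Reads were estimated from the whole-number steps of the TPM (tolerance 0.55 TPM), the row divisor and, from row 1676 on, the sorted exonic lengths of Gencode vM21 (GRCm38) less 80 bases, a release other than the one the study names. Neurons had an estimated 189367 to 3254890 reads. For NCs the fit found a unit in 6 of 8 libraries, and NC reads were not used.

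Groups follow the firing pattern label. Left out were 8 libraries, chosen by an earlier comparison of these data with the study's own tables, in which the label and the grouping, or the values under 1 name, differed. A gene was detected at 1 TPM or more. Shares carry exact Clopper-Pearson 95% intervals, and where no library held a gene the upper limit is that of 3 counts. These bounds reflect counting error alone. Classes were compared by the ratio of arithmetic means, called at 2-fold, and by the difference of shares, called at 20 points, without tests, since cells are not replicates and the labels name no animals. The named genes are all members, list genes detected in at least 20% of pLSOs or LOCs and the 3 genes of highest Spearman rho for each member. Genes found in fewer neurons (Cachd1, Cacna2d4) were named after their values were seen. A list gene that the rule names is not reported here. Members, lists and the left-out libraries were chosen with earlier results of these data known. Tested on simulated data, the unit was recovered within 2% in 20 of 20 libraries of 1200 genes. These libraries were built with the first row divisors that the fit assumes. Their recovery thus checks neither that the deposited values were divided in this way nor the divisors of later rows. For 52 against 28 simulated neurons and 2000 genes, the 2-fold call found 197 of 200 genes changed 4-fold and 51 of 1800 unchanged genes. These simulated rates do not give the error rate of the calls made here. The members were detected in only 8.75% (Cacnb3) to 45% (Cacnb4) of the 80 neurons, and single neurons decided many ratios. Of all genes tested, 52.8% were at least 2-fold apart between pLSOs and LOCs. Software was SciPy 1.17.1, NumPy 2.4.6, pandas 2.3.3 and matplotlib 3.10.9 under Python 3.11.15.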

Additional observations from a re-analysis of the deposited data

Results flagged for a closer look

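In the 8 NCs, 3 members were listed high in 1 library each. Cacnb4 was at 206 TPM and Cacnb2 at 9 TPM, each against 0 in the other 7 NCs, so that any gene seen in 1 NC would stand apart in the same way. Cacna2d1 was at 3 TPM against 1 TPM in the next library and 0 in the others. They were 3 different NCs. The usual chance rate of Dixon's criterion, about 1 in 20 groups, does not hold for values that are mostly 0.

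The neuron libraries that had been left out held members above the highest NC. Cacna2d2 reached 1826 TPM in a left-out Onset library with 653 detected genes, higher than in any kept neuron. Cacna2d3 reached 816 TPM and Cacnb2 19 TPM in another Onset library, Cacnb1 687 TPM in a LOC library and Cacnb3 322 TPM in another LOC library. These libraries entered no comparison above.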

How the results depend on the processing

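For pLSO against LOC, 3 members were 2-fold or more apart, and 3 to 4 under the alternatives except a pseudocount of 1 on the log2 scale, which gave 5 by adding Cacna2d3 and Cacnb3. Cacna2d2, Cacnb4 and Cacnb1 were called in the same direction under all 7 alternatives. Of these, the run without a filter on low values had to give the ratios of the main run, so it is no check. The run with only the neurons that had more detected genes than every NC kept 27 of 28 LOCs and all 52 pLSOs. It could therefore change little between the classes and nothing between Onset and Sustained neurons. Cacnb3 was added to the LOC side with all libraries as labelled, with own-length TPM, with a pseudocount of 10, and with only the neurons that had more detected genes than every NC. For Onset against Sustained, the count of 4 became 2 with a pseudocount of 1 and 2 with a pseudocount of 10, where Cacnb1 and Cacnb4 remained, and 6 without the highest neuron of each class. The Onset over Sustained ratio of Cacnb3 reversed to 0.749 with a pseudocount of 1 and that of Cacna2d3 to 3.75 without the highest neuron of each class. The 1 member past 20 points, Cacnb4, fell below it, leaving 0, at a detection threshold of 10 TPM (13.7 points) and at 70 estimated reads (16.5 points), the latter chosen after seeing the data. The divisors found from the members' own values equalled those of the rows for Cacnb3, Cacna2d2 and Cacnb4. For Cacna2d1, Cacna2d3, Cacnb1 and Cacnb2 the best divisors found from 6 values each were 30, 10, 9 and 27. These were unlike those of the rows, made only 33.3 to 66.7% of the values whole and were not used. The estimated reads, own-length levels and family shares of these genes therefore rest on the sorted lengths. Smaller divisors would give fewer reads, and the shares and leads were not recomputed with them. The mean number of members per neuron, 1.88 in pLSOs and 1.68 in LOCs, depended on the threshold. At 10 TPM it was 1.10 in pLSOs and 1.25 in LOCs, so the order of the classes turned. At 70 reads it was 0.808 for pLSOs and 0.786 for LOCs. Each move was smaller than the SD between neurons, which does not measure the error of a mean. No paired analysis was possible because the labels give no replicate numbers shared between groups. With the labels naming no animals, the spread between animals is unknown, and a value of 0 for Cacna2d1 or Cacnb2 can hide up to 33.8 or 67.7 reads.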
